A study of Mus musculus with 6 samples.

Results

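The 9 genes described here belong to the complement system and were chosen by name from the 31169 genes counted in whole mouse retina. They are *C1qa*, *C1qb* and *C1qc*, which encode the chains of C1q, the central component genes *C3* and *C4b*, *Cfb* (complement factor B), the receptor gene *C3ar1*, and the regulators *Serping1* and *Cd59a*. All 9 passed the filter on low counts, so that each could be tested. Poly(A) RNA was sequenced from retinas of male C57BL/6 mice, for which the sample records name no transgene or engineered allele. At 1 month of age the mice received an intracameral injection (into the front chamber of the eye) of saline or of microbeads 15 μm across, and retinas were taken 4 weeks later, at 2 months of age. The beads block the outflow of fluid and raise intraocular pressure, so the injection serves as a model of glaucoma, and saline controls carry the injury of the needle too. Each group held 3 libraries, and the records do not say whether they came from 3 separate mice, so that *p*-values may measure technical spread only. The descriptions of the saline libraries in the sample records belong to 1 series and those of the microbead libraries to another, so that description series and injection cannot be told apart.

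Complement is a set of proteins that tag cells, synapses and debris for removal. C1q binds a surface and starts the classical pathway, in which C4 is cleaved before C3, and fragments of C3 are then read by receptors on phagocytes. Factor B belongs to the alternative pathway, which amplifies the cleavage of C3. The C1 inhibitor, encoded by *Serping1*, blocks the first enzymes of the cascade, and CD59, encoded by *Cd59a*, blocks the membrane pore that ends it. In neural tissue C1q is made mainly by microglia, whereas C3 and C4 are also made by reactive glia, and in the retina complement is studied for its part in the loss of synapses of retinal ganglion cells (RGCs).

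Total counts ran from 36085737 to 46481382 in the saline libraries and from 13574949 to 19834366 in the microbead libraries. A count of 3 corresponded to between 0.0622 and 0.217 CPM (counts scaled to the same TMM-adjusted library size). Saline replicate 1 stood apart in the complement genes: it exceeded both other saline libraries by at least 2-fold in 8 of 9 members, compared to 583 of the 17707 genes tested (3.29%). Its level was the highest of the 6 libraries in 7 of 9 members, compared to 16.4% of all genes tested. The summed level of 5 lens crystallin transcripts was 366 CPM in saline replicate 3 and 29.0 CPM in saline replicate 1, against at most 0.518 CPM in the other 4. Comparisons of the groups are therefore given with all 6 libraries and without saline replicate 1.

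None of the 9 complement genes differed between microbead and saline retina past the threshold (adjusted *p* under 0.05 from edgeR's quasi-likelihood test), while 12.8% of all genes tested did. Of the members, 1 (*C4b*) had an unadjusted *p* under 0.05 from edgeR, compared to 5564 of the 17707 genes tested. DESeq2 and limma-voom called 0 members, and DESeq2 gave no *p* for *C4b*. The median log2 fold change of the members was -0.19, compared to -0.03 over all genes tested. When saline replicate 1 was left out, again 0 of 9 members passed, with 15.1% of all genes past the threshold. In that comparison 8 of 9 members had a positive log2 fold change, compared to 8581 of 17321 genes, and the median was 0.85 compared to -0.01 over all genes. An unadjusted *p* under 0.05 from edgeR was reached by 3 members (*C1qa*, *C1qb* and *Serping1*), compared to 5758 of the 17321 genes. Saline replicate 1 was singled out by its high levels of these same genes. Leaving it out therefore moved their fold changes upward by construction, which is no separate support for a rise.

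**Figure D1:**
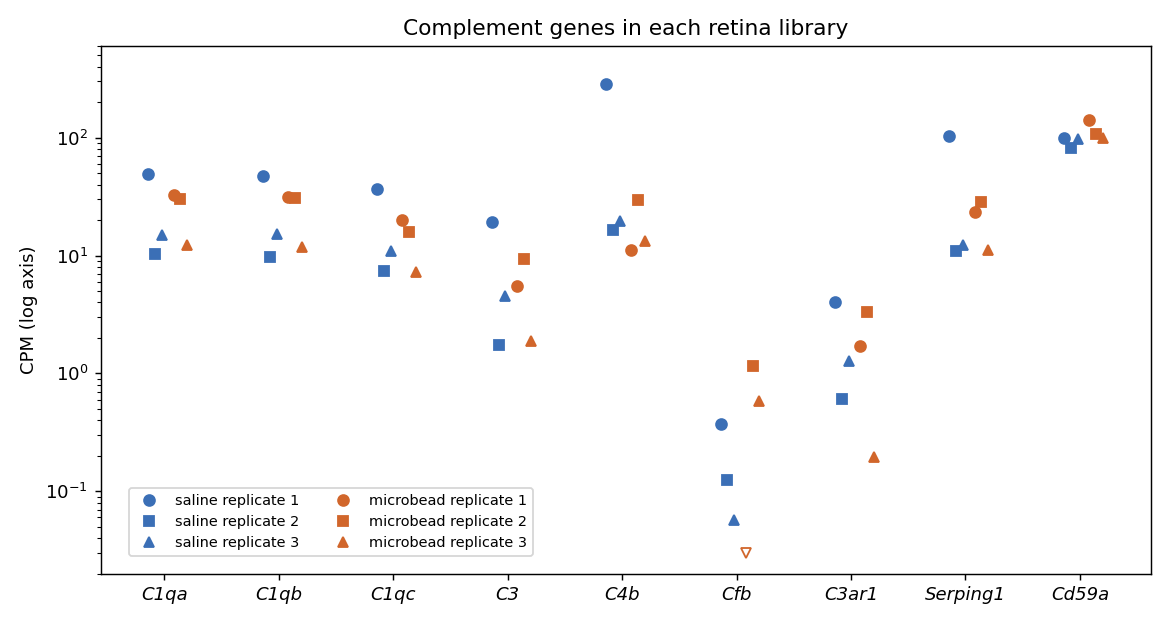
Level of each complement gene (CPM, log axis) in the 3 saline (blue) and 3 microbead (orange) libraries, with 1 point per library; the open triangle marks the library with 0 counts of *Cfb*. Saline replicate 1 was the highest library in 7 of 9 genes, and only the groups of *Cd59a* did not overlap.

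The genes of the C1q chains lie next to each other on the minus strand of chromosome 4 (GRCm38 coordinates from GENCODE vM21), *C1qb* from 136880129 to 136886187, *C1qc* from 136889804 to 136893065 and *C1qa* from 136895917 to 136898803. *C1qa* was measured at 49.4, 10.2 and 15.0 CPM in saline replicates 1 to 3, and at 32.4, 30.1 and 12.3 CPM in microbead replicates 1 to 3. *C1qb* was at 47.2, 9.71 and 15.2 CPM in saline, and at 31.7, 31.05 and 11.8 CPM in microbead retina. *C1qc* was at 36.7, 7.42 and 10.9 CPM in saline, and at 19.9, 15.8 and 7.21 CPM in microbead retina. In all 3 genes the order of the libraries was much alike: saline replicate 1 was highest, microbead replicates 1 and 2 came next, and microbead replicate 3 lay among saline replicates 2 and 3, or just below them for *C1qc*. The groups thus overlapped. With all libraries the log2 fold change was 0.01 for *C1qa* (SE 0.55, 95% interval -1.23 to 1.24, adjusted *p* = 0.995 from edgeR) and 0.05 for *C1qb* (SE 0.55, adjusted *p* = 0.966 from edgeR). For *C1qc* it was -0.36 (SE 0.57, adjusted *p* = 0.707 from edgeR). The interval of *C1qa* spans more than 1 log2 unit to either side, so these values do not show that its level was the same.

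Leaving out saline replicate 1 gave a log2 fold change of 0.98 for *C1qa* (SE 0.38, adjusted *p* = 0.103 from edgeR), 0.99 for *C1qb* (SE 0.40, adjusted *p* = 0.111 from edgeR) and 0.65 for *C1qc* (SE 0.39, adjusted *p* = 0.275 from edgeR). Summed over the chains, C1q was at 133, 27.4 and 41.2 CPM in saline and at 83.9, 77.0 and 31.3 CPM in microbead retina. The means were 67.3 ± 57.6 (SD, n = 3) and 64.1 ± 28.6 CPM (SD, n = 3), and a difference was not detectable against this spread (two-sided exact permutation test, *p* = 1.0; with 3 against 3 the smallest *p* is 0.1). With that library left out the microbead mean was 1.87 times the saline mean, with *p* = 0.3 in the same exact permutation test, and the groups still overlapped because of microbead replicate 3.

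**Figure D2:**
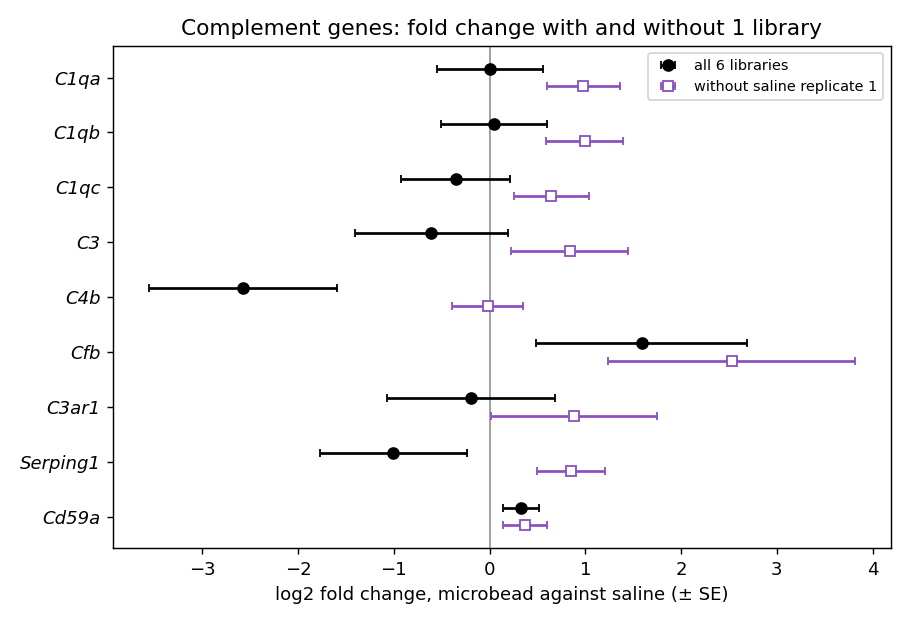
Log2 fold change of each complement gene, microbead against saline, with all 6 libraries (filled circles) and without saline replicate 1 (open squares); bars are ± 1 SE. Values of *C4b* and *Serping1* moved most, from -2.58 to -0.02 and from -1.0 to 0.85, and that of *Cd59a* moved least, from 0.33 to 0.37.

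The proportions of the C1q chains separated the groups where their levels did not, and a share of counts within a library does not depend on library scaling. *C1qc* made up 27.6%, 27.1% and 26.5% of the C1q counts in saline replicates 1 to 3, and 23.7%, 20.5% and 23.0% in microbead replicates 1 to 3. Every microbead library was below every saline library, including saline replicate 1, whose share was like that of the other saline libraries. Such separation was common, since the levels of 37.8% of all genes tested did not overlap between the groups either. The mean share was 27.1 ± 0.550% (SD, n = 3) in saline and 22.4 ± 1.67% (SD, n = 3) in microbead retina, with *p* = 0.1 in the two-sided exact permutation test, the smallest that this design allows, and 0.1 after adjustment over the 3 chains. The shares rest on 482 to 5017 C1q counts per library, and the 95% Wilson interval of *C1qc* was 24.3 to 28.8% in saline replicate 3 and 21.7 to 25.9% in microbead replicate 1, the nearest libraries. These intervals overlap and cover counting error only. The shares of *C1qa* (36.5 to 37.4% in saline, 38.6 to 39.4% in microbead) and *C1qb* (35.4 to 37.0% and 37.6 to 40.3%) were higher in every microbead library, which follows in part from the lower share of *C1qc*, since the 3 shares sum to the whole. With all libraries thinned to the smallest total count, *C1qc* and *C1qa* still did not overlap, while *C1qb* did.

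**Figure D3:**
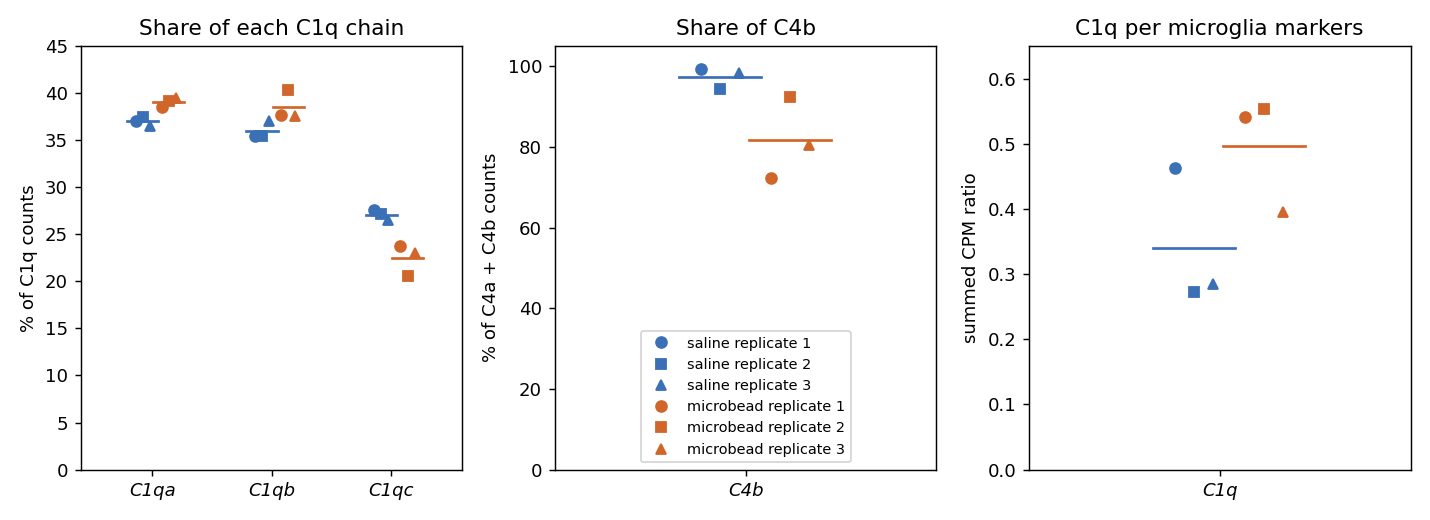
Share of each chain in C1q counts (left), share of *C4b* in counts of *C4a* and *C4b* (middle), and summed C1q CPM divided by summed CPM of 17 microglia markers (right), with 1 point per library and a line at the group mean. The *C1qc* share was lower in every microbead library, and so was the *C4b* share, whereas the C1q to marker ratio overlapped because of saline replicate 1.

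Upstream sequence was at hand in RefSeq for 5 of the 9 members, *C1qb*, *C1qc*, *C3*, *C3ar1* and *Cd59a*. Those of *C1qb*, *C3* and *Cd59a* are shown because the first 2 genes were far higher in saline replicate 1 and *Cd59a* was not. Each run gives the 250 bases before the RefSeq start site, 5′ to 3′ on the strand of the gene (GRCm38.p6), at chr4:136886201-136886450 on the minus strand for *C1qb*, chr17:57228137-57228386 on the minus strand for *C3* and chr2:104095551-104095800 on the plus strand for *Cd59a*. Capitals mark motif matches.
C1qb: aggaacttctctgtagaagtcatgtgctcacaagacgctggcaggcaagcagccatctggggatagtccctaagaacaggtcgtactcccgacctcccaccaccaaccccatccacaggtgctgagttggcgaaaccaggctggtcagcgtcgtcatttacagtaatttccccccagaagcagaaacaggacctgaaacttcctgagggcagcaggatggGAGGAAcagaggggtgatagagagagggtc
C3: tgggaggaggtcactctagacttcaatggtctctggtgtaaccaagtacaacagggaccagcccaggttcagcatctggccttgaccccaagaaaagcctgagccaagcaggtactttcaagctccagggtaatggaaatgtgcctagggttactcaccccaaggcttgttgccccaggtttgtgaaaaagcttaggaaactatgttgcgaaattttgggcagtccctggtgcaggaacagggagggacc
Cd59a: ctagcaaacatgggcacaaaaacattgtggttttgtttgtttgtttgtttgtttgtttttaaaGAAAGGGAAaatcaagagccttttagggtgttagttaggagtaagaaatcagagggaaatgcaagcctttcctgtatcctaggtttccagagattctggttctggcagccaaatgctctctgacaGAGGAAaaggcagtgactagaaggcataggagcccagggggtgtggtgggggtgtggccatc
The motifs searched on both strands were the core of PU.1 sites (GAGGAA), a factor of microglia and other myeloid cells, which 23.3% of all 32851 RefSeq promoters of the same length hold. Also searched were the interferon gamma activated site (TTCNNNGAA, 7.02% of promoters), an interferon element (GAAANNGAA, 7.13%) and the NF-kB motif (7.25%). *C1qb* holds a PU.1 core from 30 to 25 bases before the start. *Cd59a* holds an interferon element from 187 to 179 bases and a PU.1 core from 62 to 57 bases before the start. The window of *C1qc* holds a PU.1 core on the opposite strand, 193 to 188 bases before the start, and an NF-kB motif 41 to 32 bases before it. GENCODE vM21 starts *C1qc* 151 bases farther upstream than RefSeq, so by that annotation the NF-kB match lies inside the gene. The windows of *C3* and *C3ar1* hold none of the 4. A match of so few letters is a description of the window and not a bound site.

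*C4b*, on chromosome 17 from 34728380 to 34743882 (minus strand), encodes C4, which C1 cleaves, and it was the member with the widest spread. It was measured at 284, 16.6 and 19.6 CPM in saline, and at 11.1, 29.4 and 13.4 CPM in microbead retina. Saline replicate 1, with 10680 counts, was 15.7 times the mean of the other saline libraries, and the other 5 libraries lay between 11.1 and 29.4 CPM, where the groups overlapped. The log2 fold change was -2.58 (SE 0.98, unadjusted *p* = 0.0266, adjusted *p* = 0.109 from edgeR) and became -0.02 (SE 0.37, adjusted *p* = 0.978 from edgeR) without that library. Without saline replicate 3, which leaves saline replicate 1 as 1 of 2 saline libraries, *C4b* was called at -3.07 (adjusted *p* = 0.0472 from edgeR), and with no filter on low counts it was called at -2.61 (adjusted *p* = 1.02e-06 from edgeR).

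*C4a* is a near copy of *C4b* on the same chromosome, annotated in GENCODE vM21 as a processed transcript. Of the 100-base stretches of *C4b* transcripts, 15.2% also occur in *C4a*, so reads there cannot be assigned to 1 of the genes, and how the counting treated them is not given in the sources used here. *C4b* took 99.3%, 94.2% and 98.3% of the counts of the pair in saline, and 72.4%, 92.3% and 80.5% in microbead retina. Every microbead library was below every saline library (97.3 ± 2.70% against 81.7 ± 10.01%, SD, n = 3 each), with *p* = 0.1 by exact permutation of the labels, the lowest value that 3 against 3 can give. The groups did not overlap in the other 5 libraries either. In CPM it was *C4a* and not *C4b* that separated the groups, at 0.342 to 1.94 CPM in saline and 2.46 to 4.22 CPM in microbead retina. The levels of 37.8% of all genes tested did not overlap between the groups either.

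*C3*, the component on which the pathways converge, lies on chromosome 17 from 57203970 to 57228136 (minus strand). It was at 19.3, 1.74 and 4.54 CPM in saline, and at 5.56, 9.39 and 1.88 CPM in microbead retina. Saline replicate 1 was 6.16 times the mean of the other saline libraries, and among the rest the groups overlapped, with microbead replicate 3 close to saline replicate 2. The log2 fold change was -0.61 (SE 0.80, adjusted *p* = 0.641 from edgeR), and 0.84 (SE 0.61, adjusted *p* = 0.368 from edgeR) without saline replicate 1.

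*Cfb*, which encodes the protease of the alternative pathway, was the least abundant member and is counted with least certainty. Its counts were 14, 6 and 2 in saline and 0, 16 and 9 in microbead retina, which corresponded to 0.372, 0.124 and 0.0571 CPM and to 0, 1.16 and 0.585 CPM. Saline replicate 3 and microbead replicate 1 were under 3 counts, so the levels there could not be told from 0, and the microbead libraries held both the lowest and the highest value. Its log2 fold change was 1.59 (SE 1.11, adjusted *p* = 0.357 from edgeR), and 2.53 (SE 1.29, adjusted *p* = 0.197 from edgeR) without saline replicate 1. Of the 100-base stretches of *Cfb*, on chromosome 17 from 34856374 to 34862518, 66.9% also occur in *Gm20547*, a gene on the same strand that overlaps it and is not analysed here.

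*C3ar1* encodes the receptor for C3a, the small fragment of C3. It was at 4.06, 0.601 and 1.28 CPM in saline and at 1.70, 3.32 and 0.195 CPM in microbead retina, the lowest of these being 3 counts. The highest library was a saline one and the lowest a microbead one. Its log2 fold change was -0.19 (SE 0.88, 95% interval -2.16 to 1.77, adjusted *p* = 0.904 from edgeR). It was 0.88 (SE 0.87, adjusted *p* = 0.516 from edgeR) without saline replicate 1, and 0.33 without microbead replicate 3.

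*Serping1*, which encodes the C1 inhibitor, was at 103, 10.9 and 12.3 CPM in saline and at 23.3, 28.5 and 11.2 CPM in microbead retina. Saline replicate 1 was 8.88 times the mean of the other saline libraries, the second largest such ratio among the members after *C4b*. Microbead replicates 1 and 2 lay above saline replicates 2 and 3, and microbead replicate 3 lay between them. The log2 fold change of -1.0 (SE 0.77, adjusted *p* = 0.406 from edgeR) turned to 0.85 (SE 0.35, unadjusted *p* = 0.0348, adjusted *p* = 0.119 from edgeR) without saline replicate 1. With no filter on low counts *Serping1* was called lower at -1.04 (adjusted *p* = 0.0299 from edgeR).

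*Cd59a*, on chromosome 2 from 104095801 to 104115354 (plus strand), was the member with the steadiest level. It was at 99.0, 82.4 and 97.2 CPM in saline and at 142, 107 and 99.7 CPM in microbead retina. Each microbead library was above each saline library. Counted in either direction, the groups did not overlap in 1 of 9 members, compared to 37.8% of all genes tested. Saline replicate 1 was only 1.10 times the mean of the other saline libraries for *Cd59a*. A log2 fold change of 0.33 (SE 0.19, 95% interval -0.09 to 0.75, adjusted *p* = 0.267 from edgeR) was measured with all libraries and 0.37 (SE 0.23, adjusted *p* = 0.277 from edgeR) without saline replicate 1. Its neighbour *Cd59b* shared 0.276% of the 100-base stretches of *Cd59a*.

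Per kilobase of exonic sequence, where genes can be compared, *Cd59a* was the most abundant member in saline replicates 2 and 3, at a mean of 49.6 CPM per kb. *C1qa* (12.2 CPM per kb) and *C1qb* (11.5) followed, then *Serping1* (4.99), *C1qc* (4.74), *C4b* (3.18), *C3* (0.610), *C3ar1* (0.219) and *Cfb* (0.0321). The values of *C1qa* and *C1qb* in these 2 libraries overlapped, as did those of *Serping1* and *C1qc*. In microbead retina the means ran in the same order, from 64.2 CPM per kb for *Cd59a* to 0.205 for *Cfb*. In saline replicate 1 the order differed: *Cd59a* (54.6 CPM per kb), *C4b* (49.8), *C1qa* (47.5), *Serping1* (44.4) and *C1qb* (43.4) lay close together, with *C1qc* at 19.0.

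Several lists of markers of other cells and states, though not all, moved with the complement genes in saline replicate 1. The summed level of 17 microglia markers was 288 CPM there, 101 and 144 CPM in the other saline libraries and 79.2 to 155 CPM in microbead retina, and 1 marker, *Fcrls*, had 0 counts in microbead replicate 3. The summed level of 14 genes of reactive glia was 1397 CPM there, compared to 361 and 745 CPM in the other saline libraries and 382 to 567 CPM in microbead retina. The 15 genes of interferon response and antigen presentation summed to 1083 CPM there, to 333 and 397 CPM in the other saline libraries and to 451 to 643 CPM in microbead retina. Markers of monocytes and other macrophages did not follow this pattern: the 10 genes summed to 40.4 CPM in saline replicate 1, 22.9 and 25.7 CPM in the other saline libraries, and 43.8, 50.7 and 12.5 CPM in microbead retina, with 1 to 4 of 10 at 0 counts in each library. Markers of neutrophils and lymphocytes summed to 3.96 CPM in saline replicate 1 with 0 of 8 at 0 counts, and to 0.342 to 1.96 CPM elsewhere, where 2 to 6 of 8 were at 0 counts. The 7 RGC markers were lowest in saline replicate 1, at 325 CPM compared to 815 to 1220 CPM in the other 5 libraries. The part of these cells and states in the complement levels was not tested, and in whole retina a different number of cells and a different amount of RNA per cell cannot be told apart.

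**Figure D4:**
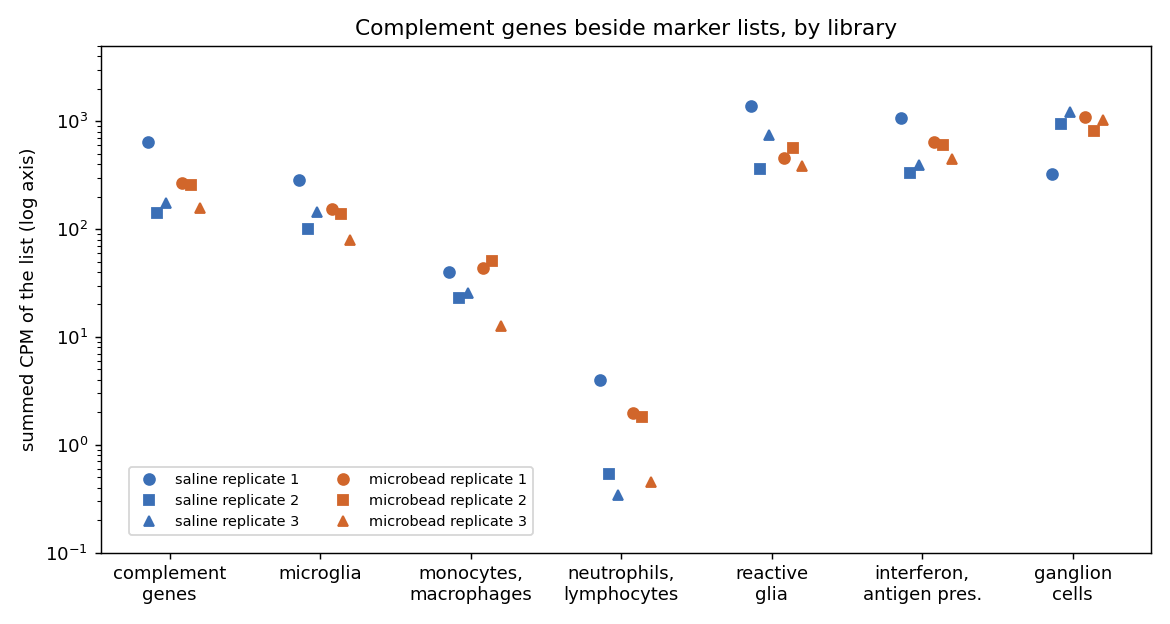
Summed CPM (log axis) of the 9 complement genes and of 6 marker lists in each library, with 1 point per library. Saline replicate 1 was highest for the complement, microglia, neutrophil and lymphocyte, reactive glia and interferon lists and lowest for the RGC list, at 325 CPM.

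C1q was then set beside the microglia markers, as its main source. The median log2 fold change of the 17 markers tested was -0.47, and *Ctss*, a protease gene and the most abundant of them, was at -0.32 (SE 0.56, adjusted *p* = 0.735 from edgeR), or at 0.65 (adjusted *p* = 0.269 from edgeR) without saline replicate 1. With all libraries 1 of the 17 markers was called lower and 0 higher, compared to 12.8% of all genes called. Without saline replicate 1 the median was 0.45, with 1 marker called higher and 0 lower, compared to 15.1% of all genes called. The marker called higher was *Cd68* (2.05, adjusted *p* = 0.0124 from edgeR), a lysosomal gene of phagocytes named after its values were seen. The ratio of summed C1q to summed markers was 0.463, 0.272 and 0.285 in saline, and 0.541, 0.553 and 0.395 in microbead retina. It was 0.340 ± 0.107 (SD, n = 3) in saline and 0.496 ± 0.0877 (SD, n = 3) in microbead retina, and the groups overlapped (two-sided exact permutation test, *p* = 0.2). Without saline replicate 1 the groups did not overlap, with *p* = 0.2 in the exact permutation test, where the smallest possible is 0.1. Taken against each marker alone, C1q was higher in every microbead library for 4 of 17 markers (*Cx3cr1*, *Tmem119*, *Csf1r* and *Ctss*, named after their values were seen), lower in every one for *Cd68*, and overlapped for 12. For scale, the levels of 37.8% of all genes tested did not overlap between the groups, so these counts do not stand out.

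Over the 6 libraries, the 5 genes most like the mean log2 CPM of the C1q chains, among 15080 genes, were *Crispld2* (Pearson's r = 0.996), *Rac2*, *Unc93b1*, *Ifitm3* and *Ctss* (0.980). Their Spearman's rho was 0.943 to 1.0, and r stayed at 0.961 or above without the 2 libraries farthest from the median, saline replicates 1 and 2. The genes most like *C4b* were *Fgl2* (r = 0.996), *Snx33*, *Pde3b*, *Osmr* and *Pik3cg* (0.982). Without the 2 farthest libraries, saline replicate 1 and microbead replicate 2, r was 0.971 for *Fgl2*, 0.968 for *Snx33* and 0.954 for *Pde3b*, and it was lower for *Osmr* (0.614) and *Pik3cg* (0.765). All points of a library share its depth and composition, and the values are descriptions.

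Of 51 other genes of the complement system, 45 were in the table and 26 passed the filter on low counts. None was called with all libraries (0 higher, 0 lower), and the median log2 fold change was -0.11. An unadjusted *p* under 0.05 from edgeR was reached by 6, compared to 5564 of the 17707 genes tested. The groups did not overlap in 7, a smaller share than the 37.8% of all genes tested. DESeq2 called 5 of the other complement genes higher and 1 lower, out of 45, where 14 had no adjusted *p*. Over all genes it called 3621 of 31169, where 10899 had no adjusted *p*. With limma-voom 2 of 26 were called higher, compared to 2210 of 17707 genes called in either direction. Without saline replicate 1, edgeR called 4 of the 26 higher, a share close to the 15.1% of all genes. Among the genes that start the cascade, *C1ra*, a protease of C1, had a log2 fold change of -0.96 (adjusted *p* = 0.367 from edgeR), which was 0.04 (adjusted *p* = 0.968 from edgeR) without saline replicate 1. That of *C4a* was 1.59 (adjusted *p* = 0.0959 from edgeR), and 2.26 (adjusted *p* = 0.0294 from edgeR) without that library. *Cfp* encodes properdin, which stabilizes the alternative pathway convertase that holds factor B. It was at 3.40 to 19.2 CPM in saline and 25.4 to 33.5 CPM in microbead retina, with a log2 fold change of 1.28 (SE 0.48, adjusted *p* = 0.104 from edgeR), and of 1.82 (SE 0.45, adjusted *p* = 0.0261 from edgeR) without saline replicate 1. *C8g*, a subunit gene of the terminal complex, was at 0.33 (adjusted *p* = 0.595 from edgeR), and at 0.51 (adjusted *p* = 0.449 from edgeR) without it.

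Among receptor genes, *C1qbp* (0.09, adjusted *p* = 0.790 from edgeR) and *Cd93* (0.03, adjusted *p* = 0.953 from edgeR) were the most abundant, and were at 0.02 and 0.03 without saline replicate 1. Among regulators, *Clu* and *Vtn*, which encode clusterin and vitronectin and hold back the terminal complex, were at means of 1283 and 1009 CPM in saline and 983 and 917 CPM in microbead retina, with log2 fold changes of -0.39 and -0.14 that did not pass. Without saline replicate 1 these were 0.09 and -0.12, and did not pass either. Of the genes called by other fits, named after their values were seen, *Cd46*, which encodes a cofactor for the cleavage of C3b, was at 0.514 to 3.30 CPM in saline and 6.84 to 10.3 CPM in microbead retina (1.86, SE 0.56, adjusted *p* = 0.0587 from edgeR). *Masp2*, a protease gene of the lectin pathway, was at 0.0856 to 0.744 CPM in saline and 1.16 to 2.40 CPM in microbead retina (2.42, SE 0.75, adjusted *p* = 0.0619 from edgeR). Its saline counts were only 28, 9 and 3, so its fold change rests in part on a count at the limit of 3. *Cd59b* was at 0.505 to 0.827 CPM in saline and 0.939 to 2.73 CPM in microbead retina (1.51, SE 0.52, adjusted *p* = 0.0815 from edgeR). These 3 genes kept their direction without saline replicate 1, at 2.05, 3.66 and 1.36, of which *Cd46* and *Masp2* were then called. Their groups did not overlap, so leaving out 1 library could not reverse them, which is no separate support. For *Masp2* saline replicate 1 was also the highest saline library, so leaving it out raised the fold change by construction.

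**Figure D5:**
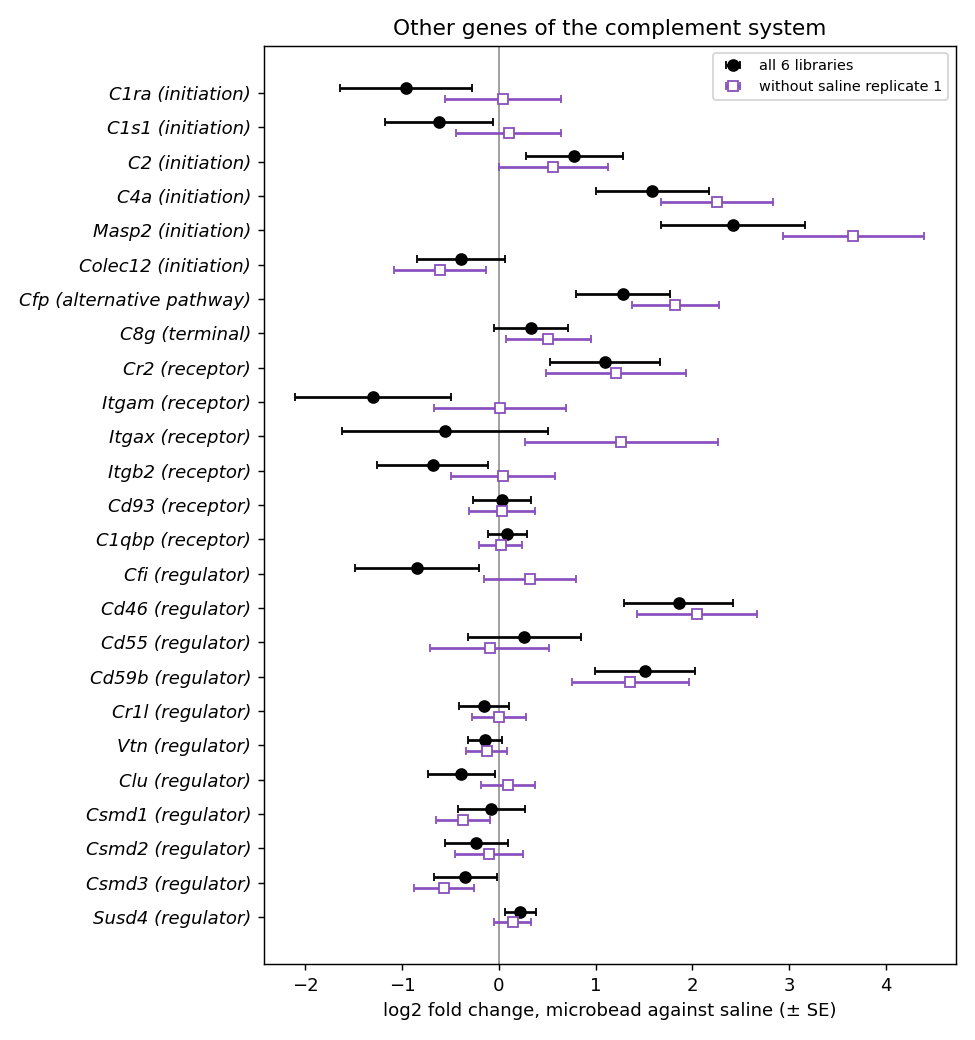
Log2 fold change, microbead against saline, of 25 of the 26 other complement genes tested, with their role in brackets, with all 6 libraries (filled circles) and without saline replicate 1 (open squares); bars are ± 1 SE. None of those drawn passed the threshold with all libraries, and *C4a*, *Masp2*, *Cfp* and *Cd46* did without saline replicate 1.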

How the data were processed

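Whole retinas from male C57BL/6 mice were sequenced 4 weeks after intracameral saline or microbead injection, with 3 libraries per group, grouped by the sample records. The authors aligned paired-end reads of stranded poly(A) libraries with STAR 2.5.3a to GRCm38.p5 with GENCODE annotation and counted them with featureCounts 1.15.2 (versions per the submitters' processing notes). The deposited count of each gene is not normalized. Columns of the authors' own DESeq2 comparison were not used: they hold the authors' mean signal, log2 fold change, linear fold or ratio, p-value, adjusted p-value and a call. Treatment of multi-mapping reads and of strand in the counting is not given in the sources used here.

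Low counts were removed by filterByExpr, with a minimum count of 10 and a minimum total of 15. After TMM scaling the groups were compared by the quasi-likelihood F test (edgeR 4.0.16, R 4.3.3), in both directions, and p-values were adjusted over all 17707 genes tested (Benjamini-Hochberg) at a threshold of 0.05. SE is the log2 fold change divided by the root of the F statistic. Sums and shares were compared with two-sided exact permutation tests. Positions and exonic lengths came from GENCODE vM21 and upstream sequence from RefSeq. Alternatives were RLE and upper-quartile scaling, scaling without mitochondrial-genome genes, robust dispersion, omitting the filter, requiring 10 counts in each library, limma-voom (limma 3.58.1), DESeq2 1.42.0, thinning, a replicate block, and each library left out. The steps were tested on simulated data. A count of 3 sets the detection limit. This limit and the Wilson intervals of shares cover counting error only. Intervals of log2 fold changes come from the edgeR fit and include the spread between libraries. Genes named were the members, the 2 most abundant other complement genes of each role, those of the marker lists past the threshold, and the 5 most alike in pattern, apart from some genes not reported here. The members and lists were chosen with earlier results of these data known, and the marker lists without saline replicate 1 were added after seeing the data.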

Additional observations from a re-analysis of the deposited data

How the results depend on the processing

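Of the 9 complement genes, 0 were called in 9 of the 10 alternatives that kept all libraries, and with no filter on low counts 2 were called, *C4b* and *Serping1*, both lower. The prior degrees of freedom of the edgeR fit were 5.59 with the filter and 77.1 without it. Leaving out each library in turn gave 0 to 1 members, the 1 being *C4b* without saline replicate 3. Over all genes, 2261 of 17707 called became 3720 of 31169 with no filter on low counts. DESeq2 called 3621 of 31169, where 10899 had no adjusted *p*. With 1 library left out, 46 of 19313 (without microbead replicate 3) to 2621 of 17321 (without saline replicate 1) were called. For the other complement genes, 0 of 26 called became 5 of 45 with no filter and 6 of 45 with DESeq2, where 14 had no adjusted *p*. The count was 2 of 21 with at least 10 counts in every library (2210 of 14710 over all genes). It was 2 of 26 with limma-voom (2210 of 17707 over all genes) and 1 of 25 with libraries thinned to the smallest (2141 of 15914). With 1 library left out, 0 to 4 were called. The log2 fold change reversed for *C1qa* with no filter (-0.039) and with thinning (-0.0012), and for *C3ar1* with thinning (0.0079). With 1 library left out it ran from -0.37 to 0.98 for *C1qa*, -0.33 to 0.99 for *C1qb*, -0.74 to 0.65 for *C1qc*, -1.16 to 0.84 for *C3*, -1.01 to 0.88 for *C3ar1* and -1.46 to 0.85 for *Serping1*, and the summed C1q difference ran from -23.1 to 29.8 CPM. *C4b* ran from -3.10 to -0.02, *Cfb* from 0.62 to 2.53 and *Cd59a* from 0.15 to 0.42. Without saline replicate 1, the medians of the microglia, reactive glia and interferon lists turned to 0.45, 0.25 and 0.074. The *C1qc* share, the *C4b* share and the C1q to marker ratio kept their direction in every alternative run. Much of this was fixed in advance. The shares did not overlap between the groups, so leaving out 1 library could not reverse them, and rescaling cannot change a ratio within a library. *Cfb* could not be fitted under thinning or with at least 10 counts in every library, nor *C3ar1* in the latter.

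Replicate numbers did not pair the libraries: same-numbered libraries correlated at -0.04, 0.14 and 0.01 in their deviations, and only replicate 2 correlated best with its own number. With the replicate block, 905 genes and 0 members were called. Depth limits *Cfb* and *C3ar1*, with at most 16 and as few as 3 counts in some microbead libraries. The cause of the other changes was not tested.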

Other observations

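Marker lists of other retinal cells held genes past the threshold, to be read against the 12.8% of all genes called. Of 10 endothelial markers, 5 were called lower and 0 higher in microbead retina, with a median log2 fold change of -0.81, and 5 were lower without saline replicate 1 as well (edgeR). Their summed level was 499 to 687 CPM in saline and 293 to 447 CPM in microbead retina. Of 11 markers of Müller glia, 3 were called lower and 0 higher (median -0.33), 2 were lower without saline replicate 1, and the summed levels of the groups overlapped. Of 14 genes of reactive glia, 2 were called lower, a share close to that of all genes. *Cebpd* was at -2.54 (adjusted *p* = 0.0253 from edgeR), and -1.97 (adjusted *p* = 0.0280 from edgeR) without saline replicate 1. *Socs3* was at -3.69 (adjusted *p* = 0.0464 from edgeR), with 228 CPM in saline replicate 3, 28.3 and 6.70 CPM in the other saline libraries and 5.52 to 8.16 CPM in microbead retina, so that its groups overlapped. Without saline replicate 3 it was at -1.36 and not called (adjusted *p* = 0.101 from edgeR), and neither gene was called without any 1 of the microbead libraries (adjusted *p* = 0.0778 to 0.176 from edgeR), alternatives chosen after seeing the data. Without saline replicate 1, 2 of the 14 genes of reactive glia were called lower and 2 higher, compared to 15.1% of all genes called in either direction. The median log2 fold change of the list was then 0.25.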
